A study of Mus musculus with 80 samples.

Results

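The comparison concerns the last step of a doxycycline series, from 0.1 to 100 ng/ml, for barcoded reporters that sit at different places in the mouse genome. The members are reporters with at least 10 DNA counts in all 8 genomic DNA libraries of their pool, 10785 of the 10903 in the deposited table, and the comparison uses 32 of the 80 samples. Pool A held 2241 of them, pool B 2263, pool C 3127 and pool D 3154. The other 118 reporters had too little DNA in at least 1 library and were left out.

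The cells are EBRTcH3, mouse embryonic stem cells in which the ROSA26 promoter drives the tetracycline-controlled transactivator (tTA), and this holds for every group. The reporters were brought in by piggyBac transposition of a barcoded tet-Off plasmid library, the design known as TRIP, in which many reporters are integrated in parallel, and cells with a low eGFP signal were sorted. The growth and treatment labels also speak of a mouse PGK promoter, whereas the titles, plasmid and design text name tet-Off; the titles were followed. Each of the 4 pools was divided into 2 cultures, which the labels call technical replicates, and each culture was spread over 4 doxycycline (dox) doses for 72 h, none, 0.01 ng/ml and the 2 doses compared here. Both cultures come from 1 pool of cells, so all p-values reflect technical spread between cultures and between libraries.

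In the tet-Off design, tTA sits on its operator beside a minimal promoter and recruits the transcription machinery, and doxycycline releases tTA from the DNA. At a saturating dose little activator is bound, and what remains of a reporter's RNA comes from the promoter and its surroundings. Insertions differ in RNA output because chromatin, nearby enhancers and nearby transcription differ from place to place, which is called a position effect. The step from 0.1 to 100 ng/ml asks what removal of the remaining activator adds, and whether reporters that still give RNA keep their order.

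Every reporter is read through its barcode, a random stretch of mostly 16 bases (10589 of 10785 reporters; 79 had 15 and 117 had 17). RNA counts of a barcode divided by its DNA counts, each scaled to its library, give RNA per integrated copy relative to the pool's other reporters. The integrations that the results turn on are shown by pool, position (build mm9) and strand; the whole barcode is in capitals because all of its bases are counted, and it is written as deposited. The first 3 barcodes occur in more than 1 pool at unrelated places, so that the same barcode stands for 1 reporter that still gave RNA at dox 100 and for another that did not. The next 8 are reporters described below for their level or their change, as the rule for named reporters chose them.
Kept in pool A at chrX:140773251 (+), lost in pool C at chr3:89959879 (+): GAAAGATAGTATCCCC
Kept in pool A at chr16:4703119 (+), lost in pool C at chr2:28369862 (-): GTCCGCGTCTAAAAAC
Kept in pool C at chr3:83934915 (+), lost in pool B at chr11:98200911 (-): ATTGCACTAAATGAGA
Large share of its pool's RNA, pool A, chr12:87814637 (-): AATTAATTCTCTGGCA
Among the highest in RNA/DNA at dox 100, pool D, chr5:104151951 (-): ATTTTCTAGCAGTCTT
Called higher and among the highest at dox 100, pool C, chr13:21842010 (-): AACAAATGGTAGCGAA
Large bound on a loss, pool A, chr10:86233931 (-): TTGCCATTGCCACAAT
Kept with a large fall, pool A, chr9:108363859 (-): ATTTGTACAATTACTA
Kept with a large fall, pool D, chr10:59649939 (+): TCGGTTTTCCTAATGC
Kept with a large rise, pool A, chr2:155990228 (-): TCTATTACCACCTGAA
RNA at dox 100 but not at dox 0.1, pool B, chr11:61076874 (-): TCACCGAACTAATTATT

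RNA libraries held 801265 to 1691627 counts at dox 0.1 and 729552 to 1355706 at dox 100, and DNA libraries 928128 to 1571280. The median reporter had 27 to 73 RNA counts at dox 0.1 and 0 in every library at dox 100. Among reporters with RNA, the median count was 78 to 181 at dox 0.1 and 107.5 to 203 at dox 100. Without molecular identifiers PCR reads are not counted molecules, so a count of 0 is a statement about reads, and it allows up to 3 counts by counting error alone. In the DNA libraries the median log2 change between the doses was 0.0053, but single reporters moved, with 5th and 95th percentiles of -0.90 and 0.87. By edgeR's quasi-likelihood test 0 reporters changed in DNA (0% of 10785, adjusted p at 0.05), with 426 at an unadjusted p under 0.05 (3.95%).

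At dox 100 most reporters had no RNA read. At dox 0.1 the share of reporters with no RNA count was 25.7% and 30.2% in the cultures of pool A, 22.2% and 26.2% in pool B, 23.0% and 35.0% in pool C, and 23.1% and 34.8% in pool D. At dox 100 the same cultures stood at 57.6% and 57.5%, 53.7% and 57.7%, 56.3% and 64.2%, and 55.9% and 65.3%. Every culture moved up and the doses did not overlap. The mean went from 27.5% ± 2.27 to 58.5% ± 2.33 (SD, n = 4 pools), a difference of 31.0 percentage points ± 0.955, up in 8 of 8 cultures. The exact permutation test that swaps doses within cultures gave a two-sided p of 0.0078, the smallest it allows. It was the same after adjustment over 4 exact permutation tests. With the 4 pools as units the smallest possible p is 0.125, and that was the value. Culture 2 of pools C and D, which had the most reporters without RNA at dox 0.1, also had the lowest RNA totals there, 801265 and 931587 counts. After thinning all RNA libraries of both doses to 729108 counts the difference was 30.9 points.

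RNA also became more concentrated in few reporters. The top 1% of reporters held 29.9% to 38.2% of a culture's RNA counts at dox 0.1 and 42.5% to 51.1% at dox 100, again with no overlap. The means were 33.7% ± 3.31 and 46.6% ± 3.26 (SD, n = 4 pools), a difference of 12.9 points ± 0.153, up in 8 of 8 cultures (exact two-sided permutation p = 0.0078, adjusted 0.0078). With the 4 pools as units the same test gave 0.125.

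**Figure D1:**
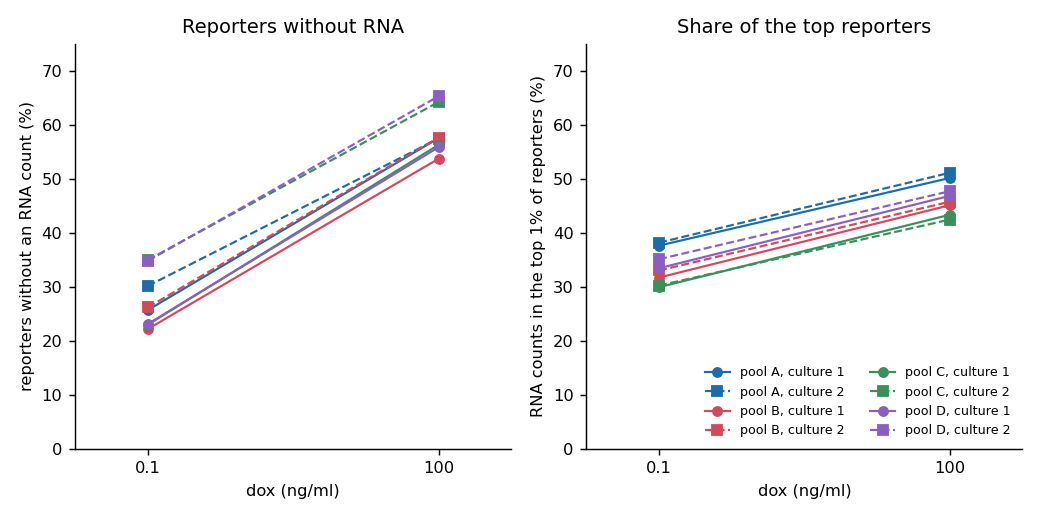
Percent of reporters without an RNA count (left) and percent of RNA counts held by the top 1% of reporters (right) at dox 0.1 and 100 ng/ml; each line joins the 2 doses of 1 culture, with colours for pools, circles for culture 1 and squares for culture 2. All 8 lines rise in both panels, from 22.2% to 35.0% up to 53.7% to 65.3% on the left and from 29.9% to 38.2% up to 42.5% to 51.1% on the right.

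Reporters were sorted by whether both, 1 or neither culture had RNA at each dose. Of 6789 reporters with RNA in both cultures at dox 0.1 (62.9% of all), 3170 had RNA in both at dox 100 and are called kept (46.7%). Another 1604 had RNA in 1 culture only at dox 100 (23.6%), and 2015 had none and are called lost (29.7%). Kept reporters made up 31.0% of pool A, 33.0% of pool B, 27.7% of pool C and 27.4% of pool D. Lost ones made up 18.3%, 19.1%, 18.6% and 18.8% of pools A to D. The loss was thus nearly even over the pools, while the kept share ranged more widely.

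The set with RNA at dox 100 was almost wholly a subset of the set with RNA at dox 0.1. Of 3309 reporters with RNA in both cultures at dox 100, 3170 (95.8%) also had RNA in both at dox 0.1, 122 had it in 1 culture and 17 in neither. A further 1743 reporters (16.2%) had no RNA at either dose, 1457 went from 1 culture to none, 426 had 1 culture at both doses, and 231 went from none to 1. Reporters with RNA in a single culture numbered 2005 at dox 0.1 (18.6%), with a median of 22 counts there, and 2261 at dox 100 (21.0%), with a median of 63. They made up 22.8% of the reporters with RNA at dox 0.1 and 40.6% at dox 100. The 10th percentile at dox 100 was 13 counts, so few of them had only 1 read. Without molecular identifiers, the number of molecules behind these reads is not known. Most of these reporters had more reads in 1 culture than the 3 that counting error alone allows beside a 0. The cause of this difference between cultures was not tested. The classes also differed in DNA: library medians were 372 to 428 DNA counts for kept reporters, 304 to 345 for lost ones and 206 to 234 for those without RNA at either dose, and the part of DNA abundance in the classes was not tested. Among the 7415 reporters with at least 100 DNA counts in every DNA library, 33.4% were kept and 19.5% lost.

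The test of the RNA/DNA ratio across all reporters (edgeR's quasi-likelihood test, Benjamini-Hochberg adjustment within each pool at 0.05) called 3042 of 10785 reporters lower (28.2%) and 524 higher (4.86%), 33.1% in either direction. Each RNA library is scaled to the others, and a decline common to every reporter leaves no trace in these values; higher or lower is relative to the reporters that set the scale. By pool, 26.2%, 28.5%, 28.4% and 29.3% were lower in A to D, and 5.04%, 5.88%, 4.54% and 4.31% were higher. The median fitted log2 change was -0.98. Because each culture was divided over the doses, the same fit with culture as a block was also made, and it called 2483 lower and 329 higher, with 2477 and 317 shared with the fit without the block. The count of higher calls depended on single cultures: leaving out 1 culture of a dose in all pools gave 301 (dox 0.1 culture 1), 195 (dox 0.1 culture 2), 317 (dox 100 culture 1) and 369 (dox 100 culture 2). Leaving out a library also moved the TMM scale of this contrast, by 0.36 to 0.62 on the log2 scale; with the scale of all 16 libraries kept, an alternative added after seeing the data, these counts were 410, 322, 547 and 613.

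At the step before it, from dox 0.01 to 0.1, the same fit called 1646 reporters lower (15.3%) and 675 higher (6.26%); the steps share the dox 0.1 libraries. Lower calls at the last step came mostly from reporters that had no RNA left. Of the 2015 lost reporters 2001 were lower and 14 were not called, which is close to what the class itself fixes. Among the 1604 with RNA in 1 dox 100 culture 198 were lower, and among the 1457 that went from 1 culture to none 425 were lower. Kept reporters moved both ways: of 3170, 416 were lower (13.1%), 331 higher (10.4%) and 2423 neither. That balance depended on single cultures: it was 446 lower and 189 higher without dox 0.1 culture 1, 506 and 150 without dox 0.1 culture 2, 853 and 149 without dox 100 culture 1, and 722 and 168 without dox 100 culture 2. With the scale of all 16 libraries kept, the same fits gave 319 and 295, 312 and 271, 583 and 344, and 518 and 366. The remaining higher calls were 148 of 231 reporters that went from none to 1 culture, 21 of 122 that went from 1 to both, 7 of 426 with 1 at both doses, and all 17 that went from none to both. The 148 calls rest on RNA in 1 dox 100 culture, and the 17 are close to what their class itself fixes.

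For kept reporters the log2 RNA/DNA level was computed with 1 count added to RNA and DNA and after division by library totals, so that 0 means the same share of RNA as of DNA. Relative to its library the median kept reporter changed little, and single reporters moved by several fold either way. A decline shared by all reporters leaves no trace after this division, so a median near 0 does not speak of absolute RNA. The median log2 change by pool was -0.16 ± 0.075 (SD, n = 4 pools). Its sign rests on the scaling: it was -0.041 with TMM factors and 0.057 with DESeq2 size factors. The 10th and 25th percentiles of the change were -2.44 ± 0.16 and -1.30 ± 0.088, and the 75th and 90th were 0.91 ± 0.12 and 1.70 ± 0.17 (SD, n = 4 pools). In all, 969 kept reporters had a change below -1 and 732 above 1. The change in culture 1 and that in culture 2 had a Spearman rho of 0.531 ± 0.043 over reporters (n = 694 to 866 a pool, which share libraries and depth; SD, n = 4 pools). All 416 lower and all 331 higher calls moved the same way in both cultures, as did 70.6% of all kept reporters; the calls were made from these same values.

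**Figure D2:**
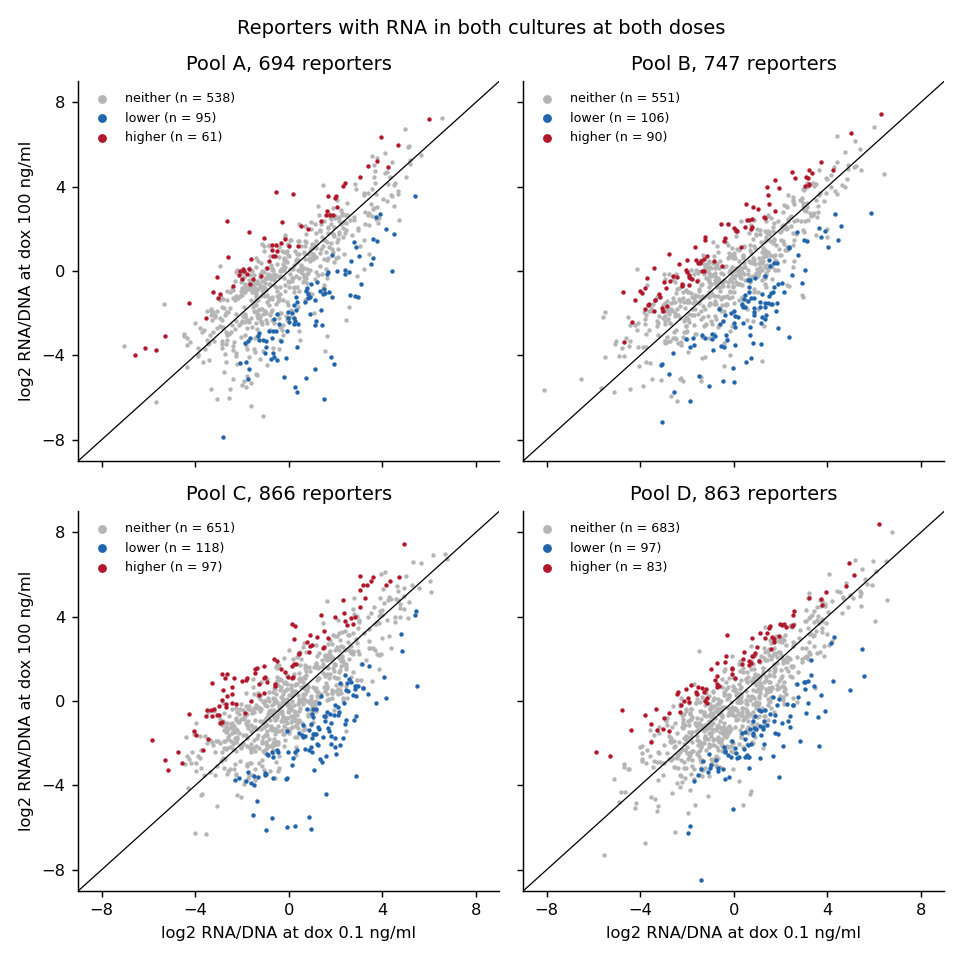
Log2 RNA/DNA at dox 0.1 (horizontal) and dox 100 ng/ml (vertical) of the 3170 kept reporters, mean of both cultures, 1 panel per pool; blue points were called lower, red points higher and grey points neither, and the line marks equal levels. Points spread along the line with 416 lower calls under it and 331 higher calls over it.

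Kept reporters spread further apart at dox 100. Their SD of log2 RNA/DNA was 2.22 and 2.28 in the cultures of pool A at dox 0.1 and 2.63 and 2.58 at dox 100, and 2.36 and 2.37 against 2.43 and 2.59 in pool B. In pool C it went from 2.25 and 2.28 to 2.45 and 2.43, and in pool D from 2.22 and 2.24 to 2.39 and 2.55. Each culture was higher at dox 100. The means were 2.28 ± 0.060 and 2.50 ± 0.072 (SD, n = 4 pools), a difference of 0.23 ± 0.091 (exact two-sided permutation p = 0.0078, adjusted 0.0078, 8 of 8 cultures). With the 4 pools as units the same test gave 0.125. With at least 10 RNA counts required in all 4 RNA libraries the difference was 0.075 (exact permutation p = 0.031).

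The order of kept reporters was partly conserved over the step. Spearman's rho between dox 0.1 and dox 100 was 0.672 in pool A, 0.677 in pool B, 0.649 in pool C and 0.693 in pool D. Between the 2 cultures of a dose it was 0.880 to 0.906 at dox 0.1 and 0.788 to 0.836 at dox 100. Rank agreement between the doses was thus below that between cultures in every pool, with no overlap. Comparing doses within a culture (0.672 ± 0.016) or across cultures (0.673 ± 0.020, SD, n = 4 pools) made no visible difference. Divided by the square root of the product of both within-dose values, the agreement between doses was 0.790 ± 0.021. These values describe reporters that share libraries and depth, and no test was made over them.

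Agreement fell with distance in dose. Kept reporters at dox 0.1 had a rho of 0.744 ± 0.026 with dox 0.01 and 0.629 ± 0.038 with dox 0, whereas at dox 100 they had 0.426 ± 0.031 with dox 0.01 and 0.356 ± 0.041 with dox 0 (SD, n = 4 pools). The lowest value for dox 0.1 against 100, 0.649, was above the highest for dox 0 against 100, 0.399. Kept reporters were also divided into 3 equal groups by DNA counts, and rho between the doses was 0.610 ± 0.012 with the fewest DNA counts, 0.641 ± 0.029 in the middle and 0.676 ± 0.027 with the most. In the group with most DNA the cultures had a rho of 0.948 ± 0.0079 at dox 0.1 and 0.852 ± 0.0095 at dox 100, so the gap between the 2 kinds of agreement was also there at high DNA. At the top of the order, 65.6% ± 1.67 of the highest 10% at 1 dose were in the highest 10% at the other, beside 78.5% ± 2.08 between cultures at dox 0.1 and 77.5% ± 3.27 at dox 100.

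**Figure D3:**
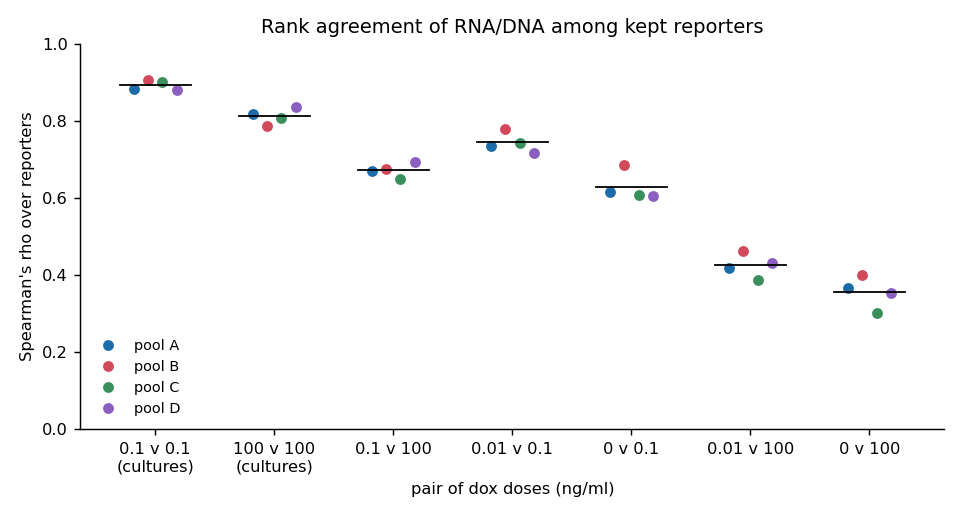
Spearman's rho of RNA/DNA over kept reporters for pairs of dox doses (ng/ml); points are pools and black lines their means, and the first 2 columns compare the 2 cultures of 1 dose. The dox 0.1 against 100 values, 0.649 to 0.693, lie below the values between cultures and above those of dox 0 against 100, 0.302 to 0.399.

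Whether a reporter still gave RNA at dox 100 went with its level at dox 0.1. The level was read in culture 1 and the RNA in culture 2, so that no library entered both. Reporters with RNA at dox 0.1 were divided into 5 equal bins by level, and in the lowest bin 18.8% ± 5.94 of reporters had RNA at dox 100 in the other culture (SD, n = 4 pools). The next bins stood at 28.7% ± 5.79, 45.4% ± 5.96 and 62.2% ± 4.28, and the highest at 86.8% ± 3.48. Reporters without RNA in culture 1 at dox 0.1 stood at 7.84% ± 3.07. Each pool showed the same order. In these bins the share with RNA at dox 0.1 in culture 2 was 57.0%, 73.3%, 87.2%, 96.8% and 99.5%, so the share seen in any second library is itself below all at low levels. With the cultures exchanged the lowest bin stood at 32.1% and the highest at 90.4%.

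**Figure D4:**
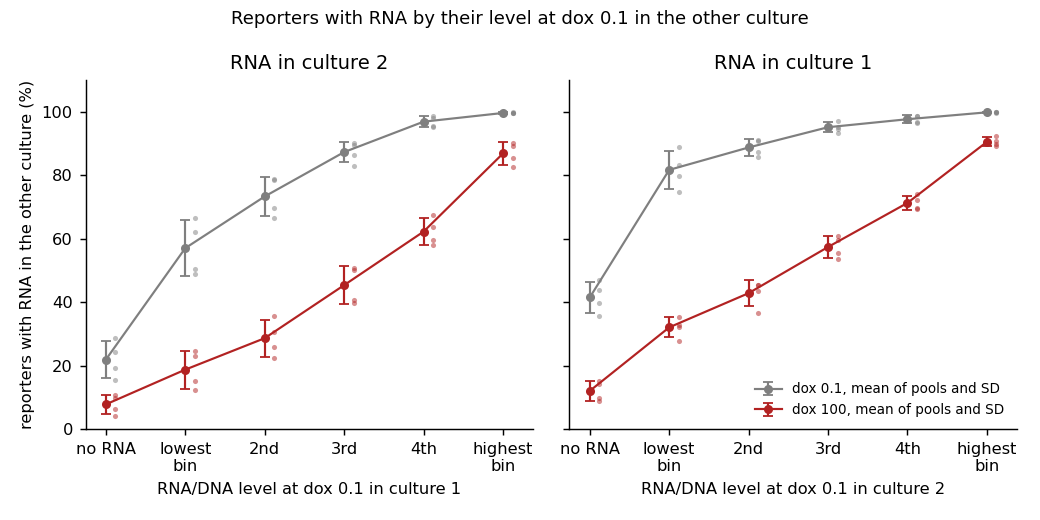
Percent of reporters with RNA in the other culture at dox 0.1 (grey) and dox 100 ng/ml (red), by their RNA/DNA level at dox 0.1 in culture 1 (left) and culture 2 (right); lines and bars are the mean and SD of 4 pools and small points are pools. The red line climbs from 7.84% without RNA to 86.8% in the highest bin on the left, and from 12.1% to 90.4% on the right.

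In the libraries without dox, which did not choose the classes, the medians of kept and lost reporters also differed. The median log2 RNA/DNA at dox 0 of lost reporters was -0.40 and -0.45 in the cultures of pool A, -0.48 and -0.45 in pool B, -0.31 and -0.34 in pool C and -0.38 and -0.40 in pool D. Kept reporters stood at 0.35 and 0.31, 0.27 and 0.24, 0.37 and 0.38, and 0.50 and 0.46. The median of kept reporters was higher in each culture, and the medians of the classes did not overlap. This concerns the medians and not single reporters. The difference was 0.76 ± 0.075 (SD, n = 4 pools), positive in 8 of 8 cultures. The exact two-sided permutation test that flips its sign by culture gave p = 0.0078, adjusted 0.0078. Both cultures of a pool hold the same reporters in the same classes, so these 8 differences are not independent. With the 4 pools as units the test gave 0.125, the smallest it allows.

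At equal level at dox 0.1 the relation turned round. Reporters with RNA in both dox 0.1 cultures were divided into 5 equal bins of that level within each pool, and the share kept was 14.1%, 29.2%, 43.3%, 61.0% and 87.1% from lowest to highest. Within the lowest bin the dox 0 level of kept minus lost reporters was -0.66 ± 0.45, and in the next 3 bins it was -0.58 ± 0.38, -0.60 ± 0.20 and -0.60 ± 0.12 (SD, n = 4 pools). All pools were negative in these 4 bins. In the highest bin it was -0.26 ± 0.30, with pool C at 0.028 and only 60 lost reporters in all. Kept and lost reporters were not fully matched: kept ones were still 0.093 to 0.75 higher at dox 0.1, and they had more DNA in every bin, with 701 against 504 counts in the lowest, then 548 against 324, 492 against 295, 424 against 236, and 354 against 188 in the highest (means of pool medians). The part of DNA abundance in this difference was not tested, and the exact permutation test over 4 pools could not go below 0.125.

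The kept reporters called higher or lower at the last step had different levels at dox 0 as well. Relative to the median of kept reporters in their pool, those called lower stood at 0.80 ± 0.078 at dox 0, 0.94 ± 0.081 at dox 0.01, 1.00 ± 0.13 at dox 0.1 and -1.34 ± 0.16 at dox 100 (log2, SD, n = 4 pools). Those called higher stood at -0.57 ± 0.39, -0.88 ± 0.34, -0.72 ± 0.46 and 1.55 ± 0.47. The values at dox 0.1 and 100 made the calls and are only a description. The dox 0 and 0.01 libraries entered the calls through the shared estimate of the spread and the scaling. Levels of kept reporters at dox 0 and 0.01 also went with those at dox 0.1 (rho 0.629 and 0.744). Their difference between the calls is therefore not independent of the values that made the calls. In all pools the reporters called lower were above the median without dox and those called higher were below it.

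Of the 5 highest reporters at dox 100 outside chromosome 18, 2 were also among the 5 highest at dox 0.1. A reporter of pool A at chr12:87814637 (-) gave 100025 and 110624 RNA counts in its dox 0.1 cultures and 166106 and 194210 in its dox 100 cultures, beside 1148 to 1888 DNA counts. It alone held 6.08% and 6.54% of its pool's RNA at dox 0.1 and 13.4% and 14.3% at dox 100. Its cultures did not overlap between the doses, and the fitted log2 change was 1.35 ± 0.25 (SE; edgeR adjusted p = 0.0012). Without dox 0.1 culture 2 it was 0.53 and not called, nor was it called without either dox 100 culture (0.98 and 0.79). It stayed called in all 4 of these fits when the scaling of all 16 libraries was kept.

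In pool C the reporter at chr13:21842010 (-) went from 12966 and 10333 to 51583 and 43959 RNA counts, from 1.17% and 1.29% of the pool's RNA to 5.48% and 5.04%. Its change was 2.66 ± 0.45 (SE; edgeR adjusted p = 0.00073), and it lost its call only without dox 0.1 culture 2 (1.39). Its nearest neighbour in the table, 40642 bp away in the same pool, was lost: it gave 161 and 175 RNA counts at dox 0.1, then 0 and 0.

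A stretch of chromosome 5 held 6 kept reporters from 2 pools within 26256 bp, from chr5:104127348 to chr5:104153604. The highest of them at dox 100, chr5:104151951 (-) in pool D, gave 14326 and 11621 RNA counts at dox 0.1, then 20065 and 22045 at dox 100, with 109 and 230 and then 32 and 80 DNA counts. Its ratio of RNA share to DNA share was 99.3 and 56.2 at dox 0.1 and 476 and 228 at dox 100. The change was 2.33 ± 0.80 (SE; edgeR adjusted p = 0.044), and it lost its call with library totals, in the fit on 8 libraries and without dox 0.1 culture 1 or 2 or dox 100 culture 1. The reporter at chr5:104127348 (-), also in pool D, gave 19875 and 15761 RNA counts at dox 0.1, then 13929 and 17649 at dox 100; its dox 100 DNA counts of 177 and 13 set its ratios of 61.3 and 1058 far apart. Its change of 0.48 ± 0.97 was not called (adjusted p = 0.87), but without dox 100 culture 1 it was 2.98 and called higher (edgeR adjusted p = 0.00033). The other 4, at chr5:104135739, chr5:104142884, chr5:104147975 and chr5:104153604, had 1614 to 7695 RNA counts at either dose and were not called; without dox 0.1 culture 1 the one at chr5:104142884 was called lower (-2.59, edgeR adjusted p = 0.020). At chr5:104046824, 80524 bp before the first of them, a pool C reporter with 914 to 1268 DNA counts gave 70 and 0 RNA counts at dox 0.1, then 0 and 0.

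The other reporters at the top of the dox 0.1 or dox 100 order were not called either. At chr17:37120992 (+) in pool A RNA was read 16499 and 16177 times at dox 0.1, then 19480 and 22678 times at dox 100 (change 0.70 ± 0.64). At chr11:62324216 (+) in pool C they were 10767 and 7462, then 15968 and 13814 (0.19 ± 0.57), and at chr2:20589063 (-) in pool C 8790 and 7580, then 21677 and 18901 (0.33 ± 0.22). The sign of each turned in at least 1 fit that left out a culture and rescaled the rest, with lowest values of -0.29, -1.39 and -0.48. All the reporters named so far for their level had at least 345 RNA counts in each culture without dox, and all stood higher in RNA/DNA at dox 0.1 than at dox 0.

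Some strong reporters lost all reads. The 5 largest bounds outside chromosome 18 were taken against a floor of 3 counts over both dox 100 cultures. The pool A reporter at chr10:86233931 (-) gave 2108 and 2105 RNA counts at dox 0.1, then 0 and 0, with 736 to 968 DNA counts, at least 1366-fold lower by this bound (adjusted p = 2.0e-06, edgeR). Its RNA counts at dox 0 were 1554 and 1808. At chr17:74486446 (-) in pool D RNA went from 1780 and 955 to 0 and 0 (at least 1188-fold lower), at chr3:68395923 (-) in pool C from 2530 and 1237 to 0 and 0 (at least 1105-fold), and at chr4:125088305 (-) in pool A from 1216 and 924 to 0 and 0 (at least 798-fold). At chr3:89959879 (+) in pool C, the partner of the shared barcode above, the bound was 923-fold. All 5 had at least 618 RNA counts in each culture without dox. Over the 2001 lost reporters called lower the median bound was 33.8-fold. The bounds hold for read counts, and grow with the counts a reporter had at dox 0.1.

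Kept reporters with the largest falls outside chromosome 18 went from many reads to a few. At chr9:108363859 (-) in pool A RNA went from 3052 and 3838 counts to 68 and 20, beside 747 to 897 DNA counts, a change of -5.96 ± 0.64 (SE; edgeR adjusted p = 4.0e-05). This reporter had 13337 and 15365 RNA counts without dox. At chr10:59649939 (+) in pool D they were 381 and 270, then 2 and 2, a change of -7.40 ± 0.52 (adjusted p = 1.1e-05), and at chr16:8835067 (-) in pool A 5090 and 4500, then 93 and 103, a change of -5.75 ± 0.45 (adjusted p = 6.5e-06). At chr13:4182539 (-) in pool A the fall rests on single reads, 1 and 1 at dox 100 after 86 and 69. At chr10:96179950 (-) in pool A the dox 100 cultures differed, with 1 and 105 RNA counts after 2170 and 2299. The latter (-5.57 ± 1.45, adjusted p = 0.012) lost its call in the fit on the 8 libraries of these doses alone and without dox 0.1 culture 2, and, with the scaling kept, without either dox 0.1 culture. Without dox 100 culture 1, which held the single read, it was -5.12 and still called (edgeR adjusted p = 0.00011).

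The 5 largest log2 rises among kept reporters outside chromosome 18 began at few counts, 16 to 69 at dox 0.1. Rises named above, as at chr12:87814637 (-), were larger in reads but smaller on the log2 scale. The largest log2 rise was at chr2:155990228 (-) in pool A (5.01 ± 0.91, SE, edgeR adjusted p = 0.0012). Its RNA counts went from 69 and 68 to 550 and 790, and its DNA counts from 508 and 307 to 231 and 83. Both parts of the ratio moved: the RNA share rose from 0.0042% and 0.0040% to 0.044% and 0.058%, and the ratio from 0.12 and 0.21 to 2.49 and 10.4. At chr13:100873429 (-), chr5:92383262 (-) and chr13:85358036 (-) in pool C, RNA went from 16 to 52 counts at dox 0.1 to 129 to 345 at dox 100, with changes of 4.20 ± 0.89, 4.16 ± 0.87 and 4.16 ± 0.67. At chr17:66134483 (+) in pool D it went from 58 and 22 to 166 and 461 over 20 to 65 DNA counts (3.91 ± 1.00, adjusted p = 0.010), and this call was lost in the fit on 8 libraries, with DNA as an offset, and without dox 0.1 culture 2 or dox 100 culture 2. The call at chr13:100873429 was lost without dox 0.1 culture 2 or dox 100 culture 1. At dox 0 these 5 reporters had 14 to 125 RNA counts.

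Of the 17 reporters with RNA in both dox 100 cultures and in neither at dox 0.1, the 3 with most RNA at dox 100 had it at lower doses too. At chr11:61076874 (-) in pool B RNA was read 29 and 40 times at dox 0, 21 and 16 at dox 0.01, 0 and 0 at dox 0.1, then 147 and 58 at dox 100. At chr4:44604348 (-) in pool A they were 151 and 201, 86 and 101, 0 and 0, then 180 and 114, and at chr8:110672670 (+) in pool D 39 and 64, 30 and 19, 0 and 0, then 28 and 247. In each the dox 0.1 counts lay below those of all other doses. The reporters were chosen for 0 reads at dox 0.1 and RNA at dox 100, so this is a description only. The fall from dox 0.01 to 0.1 was not called at chr8:110672670 (edgeR adjusted p = 0.058), while it was at the others. DNA counts at dox 0.1 were 75 to 287.

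**Figure D5:**
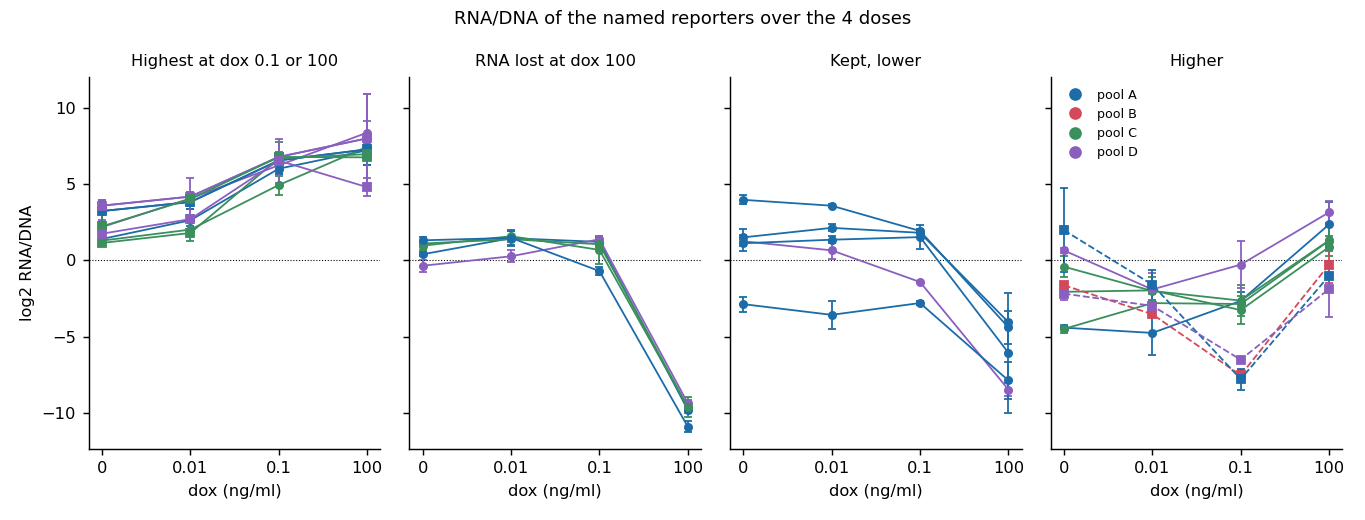
Log2 RNA/DNA (mean and SD of both cultures) over the 4 dox doses of the named reporters, coloured by pool: those named for their level at dox 100 (circles) or dox 0.1 (squares), the 5 named losses, the 5 named falls among kept reporters, and at the right the 5 named rises among kept reporters (circles) and the 3 named gains (squares, dashed). Lost reporters drop between dox 0.1 and 100, where their values are set by the added count of 1.

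The same barcode did not behave alike at different places. In 385 barcodes found in more than 1 pool, 415 pairs of reporters could be compared, and 47 pairs had 1 kept and 1 lost member. The pool A reporter with barcode GAAAGATAGTATCCCC on chromosome X at 140773251 gave 8338 and 8222 RNA counts at dox 0.1, then 9690 and 12478, while the pool C reporter with that barcode on chromosome 3 at 89959879 had 2100 and 864, then 0 and 0, beside 788 to 1026 DNA counts. With GTCCGCGTCTAAAAAC, RNA went from 162 and 362 to 461 and 160 on chromosome 16 and from 327 and 340 to 0 and 0 on chromosome 2. With ATTGCACTAAATGAGA it went from 319 and 235 to 118 and 159 on chromosome 3 and from 171 and 170 to 0 and 0 on chromosome 11. Over all pairs 28.7% of reporters whose partner was kept were kept themselves, beside 30.9% of the others, and rho of the level was 0.015 at dox 0.1 and -0.063 at dox 100 over 415 pairs. Barcode GC content was 41.2% in kept, 41.3% in lost and 41.3% in reporters without RNA at either dose.

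Position in the genome went with the class. Only pairs whose members came from different pools, with no culture in common, were used. Of reporters within 10 kb of a kept reporter 69.8% were kept, beside 31.6% of those within 10 kb of one that was not. At 10 to 100 kb it was 56.6% beside 29.9%, and from 100 kb to 1 Mb it was 36.0% beside 30.2%. For lost reporters it was 27.3% beside 13.1% under 10 kb, 23.4% beside 16.6% at 10 to 100 kb, and 20.4% beside 19.4% beyond. Of all reporters in such pairs, from nearest to farthest, 47.9%, 35.9% and 29.5% were kept and 16.2%, 18.3% and 18.8% lost. Reporters with a close neighbour were thus more often kept to begin with. Kept reporters thus lay near each other, lost ones less so, and both contrasts faded with distance; a reporter with several neighbours counts once for each, and no test was made.

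The size of the change was shared over short distances only as far as these pairs show. Over 385 pairs of kept reporters under 10 kb apart the changes had r = 0.25 and rho = 0.28, over 1229 pairs at 10 to 100 kb r = 0.032 and rho = 0.058, and over 4372 pairs at 100 kb to 1 Mb r = 0.024 and rho = 0.035. The kept share by chromosome ran from 23.1% on chromosome 13 (541 reporters) to 36.2% on chromosome 11 (649 reporters), with SDs over pools of 4.42 and 7.28 points. On X, with 203 reporters, 28.6% were kept, 11.3% lost and 24.6% without RNA at either dose. Strand made little difference, with 29.7% kept on plus and 29.1% on minus.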

How the data were processed

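Barcode reads from cDNA and genomic DNA were deposited by the authors as raw counts per reporter, not normalized, in 1 table with chromosome, position and strand. The submitters' processing notes name Bowtie2 2.0 and mm9, with no role for either; barcode calling and filtering are not given in the sources used. This table left 0 columns of sample values unused, its lowest DNA count is 5, and gene annotation of mm9 positions was not used here. Members, classes and the rule for named reporters were chosen with earlier results of these data known.

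Per pool, edgeR 4.0.16 (R 4.3.3) fitted 16 libraries with terms for dose, assay and dose by assay, after TMM scaling of RNA and DNA apart. The SE is the absolute log2 change over the square root of F. A level is log2 of RNA plus 1 over DNA plus 1 after division by library totals. Paired tests swapped doses in 8 cultures (256 arrangements) or 4 pools (16). The named reporters are the 5 highest at each dose, the 5 losses with the largest bound, the 5 largest falls and rises among kept reporters, and the 3 gained with most RNA, chromosome 18 left out. Alternatives were other scalings, filters, pseudocounts, models and left-out cultures, with DESeq2 1.42.0 as another test. Scripts ran in Python 3.11.15 and were tested on simulated data.

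The labels say that each culture was split over the doses, so culture numbers pair the doses. Deviations of same-numbered libraries correlated at 0.030, -0.15, 0.041 and 0.010 over kept reporters in pools A to D, and at 0.034, 0.0067, 0.028 and 0.0085 in DNA.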

Additional observations from a re-analysis of the deposited data

Results flagged for a closer look

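The share of reporters without RNA at either dose was 13.7% in pool B and 16.8%, 16.5% and 17.1% in pools A, C and D. Pool B stood apart from the other 3 by Dixon's criterion, the only such case among 31 groups of 4 pools or 8 cultures examined. Chance flags about 1 in 20 such groups.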

How the results depend on the processing

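The counts of reporters called higher moved most. The main count of 524 was 142 in the fit on 8 libraries, 221 with DNA as an offset, 329 with the replicate block and 780 with the DESeq2 Wald test, and 195 to 369 when 1 culture was left out; with the scaling kept, the 4 such fits gave 322 to 613. Lower calls ranged from 2096 to 4185. Among kept reporters the alternatives gave 197 to 853 lower and 124 to 501 higher calls; without dox 100 culture 1 they were 853 and 149. The median change of all reporters was -1.07 with library totals, -1.12 with the replicate block, -0.87 with the DESeq2 Wald test, -0.69 to -2.52 with 1 culture left out, and -0.51, -0.85, -1.98 and -1.22 with the scaling kept as well. The rise in reporters without RNA was 27.0 to 35.0 points and the rise in the top 1% share 12.4 to 13.4 points with 1 culture left out. The median change of kept reporters was -0.041 with TMM scaling, 0.057 with DESeq2 size factors and -0.078 with at least 10 RNA counts, and -0.22 to -0.076 with 1 culture left out. The share with RNA at dox 100 was 32.1% in the lowest bin of level and 90.4% in the highest with cultures exchanged, and 90.4% in the highest with at least 100 DNA counts. DNA calls were 0 to 1 with 1 culture left out. Named reporters that were not called changed sign with 1 culture left out: chr5:104127348 (-0.99 to 2.98, and -0.56 with the scaling kept), chr17:37120992 (-0.29 to 1.03), chr11:62324216 (-1.39 to 0.25, with the scaling kept -0.68 and -0.0055, -0.12 with DNA as an offset) and chr2:20589063 (-0.48 to -0.10). Beyond the shift in scale given above, the cause was not tested. The replicate block changed no other count by more than 1.5 times. Depth limits every statement on reporters with few reads, since a culture with 0 counts allows up to 3 by counting error alone. The spread between cultures comes on top of that.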
